A study of Mus musculus with 4 samples.

Results

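Actin and tubulin genes were examined in ATAC-seq peak lists of mouse embryonic stem cells (ESCs). The set holds 10 of the 21938 protein-coding genes annotated on the 21 chromosomes. It was chosen by name and not by a measured value, though with earlier results of these data known. The widely used members are Actb, Actg1, Tuba1b, Tubb5 and Tubb4b, which are used in most tissues. The restricted members are Acta1, Acta2, Actc1, Tuba1a and Tubb3, which are best known from muscle or neurons. For each gene, a listed peak counted as a promoter peak when it came within 1 kb of any transcript start in GENCODE mouse release 21, and other peaks were collected over the gene and to 20 kb on either side.

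The study asked how chromatin modifiers act on transposable elements in ESCs, and the libraries analysed here are its controls. ATAC-seq uses a transposase that cuts and tags open DNA, so a peak is an interval where tagged fragments piled up. Cells of the E14 line, grown in serum with LIF, received a pLKO lentivirus with a hairpin against GFP (shGFP, 1 library) or against luciferase (shLuc, 3 libraries), and neither hairpin has a mouse gene as its target. Both groups were kept under puromycin selection (2 μg/ml) for 2 days and ATAC-seq followed 2 days after its end, so each library comes from a selected mixture of infected cells rather than a clone.

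Each list gives the position of a peak and no height, score or p-value, so presence, width and distance are the values that can be read from it. The lists held 41943 peaks in shGFP and 17860, 41401 and 31585 peaks in shLuc replicates 1, 2 and 3, with median widths of 603 to 663 bp. The sequencing depth is unknown from the lists, and shLuc replicate 1, the shortest list, stands apart from the other libraries. With 1 library against 3, an exact permutation test cannot give a p below 0.25, so no test was run. A missing peak means only that none is listed in the files analysed here, which may not hold every row at each gene.

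Actin filaments carry cell shape, adhesion and movement, and microtubules, built from paired α- and β-tubulin, carry transport and the mitotic spindle. Each protein comes from several genes whose products are nearly alike but whose promoters are used in different cells. Actb and Actg1 encode the cytoplasmic actins of nearly all cells, whereas Acta1, Acta2 and Actc1 encode the actins of skeletal, smooth and cardiac muscle. Tuba1b encodes an α-tubulin and Tubb5 and Tubb4b encode β-tubulins found in many dividing tissues. Tuba1a is the main α-tubulin of developing neurons, though it is also made in other embryonic tissue, and Tubb3 is the β-tubulin commonly used to stain neurons.

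The number of widely used and of restricted members with a promoter peak differed on average by less than the spread between libraries. In shGFP, 3 of 5 widely used and 1 of 5 restricted members had a promoter peak, against 60.7% of all protein-coding genes in the same list. In shLuc replicate 1 the counts were 0 and 1, with 46.8% of all protein-coding genes. In shLuc replicate 2 they were 2 and 2 (60.3% of protein-coding genes), and in shLuc replicate 3 they were 2 and 1 (55.1%). Neither class exceeded the share for all protein-coding genes in any library. Of all 10 members, 40.0% had one in shGFP and 10.0%, 40.0% and 30.0% in shLuc replicates 1, 2 and 3. Averaged over the 4 libraries, 1.75 ± 1.26 (SD, n = 4) widely used and 1.25 ± 0.500 (SD, n = 4) restricted members had a promoter peak. The difference of 0.500 was smaller than its SD between libraries (1.29). It was 2.50 with Tuba1a counted as widely used and turned to -1 with Tubb4b counted as restricted, so its direction rests on where single genes are placed.

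Only 1 member, Tuba1a, had a promoter peak in all 4 libraries, where 42.5% of protein-coding genes did. Tuba1a lost that place when a peak had to overlap the GENCODE start base or when the widest 50% of each list were used. Without shLuc replicate 1 the number rose to 2, with Tubb4b. Tubb4b had one in 3 libraries, Actb and Tuba1b in 2, and Tubb3 in 1. The remaining 5 members, Actg1, Tubb5, Acta1, Acta2 and Actc1, had none in any library, as did 35.3% of protein-coding genes. So the absent group held 2 of the widely used and 3 of the restricted genes, and it included all 3 muscle actins. Per library, 4 of the 10 members had a promoter peak in shGFP and, over shLuc replicates 1, 2 and 3, 1, 4 and 3 did (mean 2.67 ± 1.53, SD, n = 3). The shGFP count was above the shLuc mean by 1.33, which is less than the SD, and equal to that of shLuc replicate 2.

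**Figure D1:**
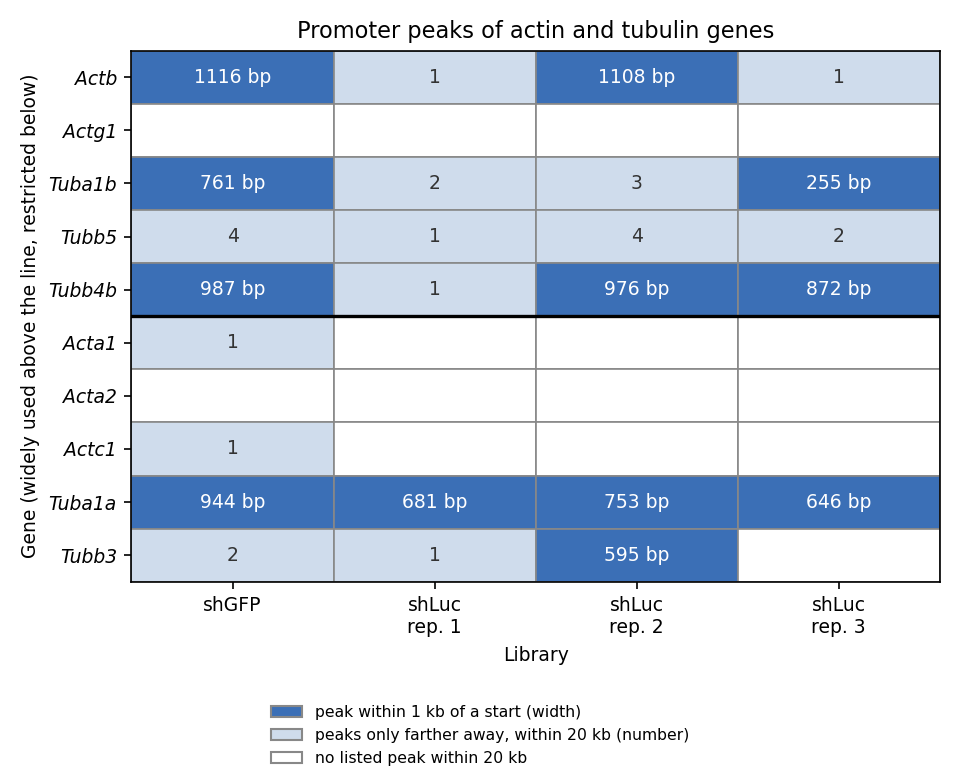
Promoter peaks of the 10 genes (rows) in the 4 libraries (columns). Dark tiles give the width in bp of the widest listed peak within 1 kb of a start, pale tiles the number of peaks that lie only farther away within 20 kb, and white tiles no listed peak. Tuba1a is dark in all 4 columns, and Actg1 and Acta2 are white in all 4.

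Actb, the gene of cytoplasmic β-actin (ENSMUSG00000029580.14, mm10 chr5:142903115-142906754, minus strand), had a wide peak over its start in some libraries and none in others. The peak measured 1116 bp in shGFP and 1108 bp in shLuc replicate 2 (mean 1112.0 ± 5.7 bp, SD, n = 2 libraries), wider than 85.5% and 86.5% of all peaks in those lists. Its ends differed by only 22 and 30 bp between the 2 libraries, and it ran mainly from the start into the gene, with 741 bases in introns and 280 or 302 in exons. In shLuc replicates 1 and 3 the nearest listed peak was 8315 and 8032 bp from an Actb start. That peak lay at the start of Fbxl18, a gene of an F-box protein downstream of Actb, and was listed in all 4 libraries with widths of 722 bp in shGFP and 539, 827 and 761 bp in shLuc.

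For comparison, chosen after these values were seen, 4578 protein-coding genes had a promoter peak of at least 1000 bp in both shGFP and shLuc replicate 2. Of these, 94.7% also had a promoter peak in shLuc replicate 3 and 82.9% in shLuc replicate 1. Actb was therefore among the 5.33% without one in replicate 3 and the 17.1% without one in replicate 1.

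Actg1, the gene of cytoplasmic γ-actin (ENSMUSG00000062825.15, chr11:120345690-120348542, minus strand), lay more than 20 kb from the nearest listed peak in all 4 libraries. The nearest peak was 29734 bp from a start in shGFP and 29991, 21285 and 29740 bp away in shLuc replicates 1, 2 and 3. Over all protein-coding genes, 12.2% had no listed peak over the gene or its 20 kb flanks in any library. The Actg1 promoter was the richest in G and C among the 9 members with a RefSeq window, at 77.3% in the RefSeq window of 250 bases before and 50 after the start, with 1.12 times the CpG pairs that its base composition predicts. Among 7582 protein-coding genes with a promoter of this CpG-rich kind (at least 55% GC and a ratio of at least 0.6), 94.8% had a promoter peak in at least 1 library and 0.501% had no peak within 20 kb in any. The sequence below is shown because it is this promoter with no listed peak. It covers chr11:120348543-120348745 on the minus strand of mm10, just before the first annotated start, from RefSeq (GRCm38.p6), with capitals for the GC box GGGCGG, for CCAAT and for the CArG box, the site of serum response factor.
Actg1: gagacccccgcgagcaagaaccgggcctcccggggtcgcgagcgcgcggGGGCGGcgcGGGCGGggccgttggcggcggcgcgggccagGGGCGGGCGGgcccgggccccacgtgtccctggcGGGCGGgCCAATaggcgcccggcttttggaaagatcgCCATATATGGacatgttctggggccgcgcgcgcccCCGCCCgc
The CArG box began 43 bases before the first GENCODE start and the CCAAT box 73 bases before it.

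Tuba1b (ENSMUSG00000023004.8, chr15:98931425-98934565, minus strand) had a peak over its start in 1 library. In shGFP a peak of 761 bp covered the start, with 353 bases before the gene, 233 in exons and 175 in introns, and a peak of 338 bp lay 796 bp upstream. In shLuc replicate 3 the upstream peak was listed alone, 255 bp wide and 843 bp from the start, narrower than all but 1.75% of peaks in that list. In shLuc replicates 1 and 2 the nearest peaks were 16031 and 5390 bp away. A start of Gm41396, an antisense gene that overlaps Tuba1b, lies 82 bp from the first start of Tuba1b. The shGFP peak of 761 bp covers starts of both genes and cannot be assigned to one of them. The upstream peak was nearer to a start of Gm41396, at 714 bp in shGFP and 761 bp in shLuc replicate 3.

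Tubb5 (ENSMUSG00000001525.10, chr17:35833921-35838306, minus strand) had peaks nearby but none at its own start. The nearest lay 2893 bp upstream in shGFP and 2960, 2893 and 2696 bp upstream in shLuc replicates 1, 2 and 3, with widths of 568, 376, 677 and 751 bp. In all 4 libraries this peak covered a start of Mdc1, a DNA damage checkpoint gene. Peaks on the other side lay at or within 73 bp of starts of Flot1, a membrane raft gene, in 3 libraries and Ier3, an early response gene, in shGFP and shLuc replicate 2. The Tubb5 window had 55% GC, at the limit for the CpG-rich class, and a CpG ratio of 0.93, so Actg1 and Tubb5 were both CpG-rich genes with no promoter peak, as were 5.25% of that class. The upstream sequence of Tubb5 is shown for comparison with that of Tubb4b, a related gene with a peak. It covers chr17:35838307-35838551 on the minus strand, with both CCAAT boxes in capitals.
Tubb5: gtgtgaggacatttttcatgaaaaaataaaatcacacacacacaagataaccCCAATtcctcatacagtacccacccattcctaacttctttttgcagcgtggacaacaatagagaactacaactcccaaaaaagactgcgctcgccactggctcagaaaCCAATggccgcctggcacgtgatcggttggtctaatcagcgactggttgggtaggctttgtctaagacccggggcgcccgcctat
They began 193 and 85 bases before the first GENCODE start.

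Tubb4b (ENSMUSG00000036752.4, chr2:25222160-25224702, minus strand) had a peak over its start in every library but shLuc replicate 1. The width was 987 bp in shGFP, 976 bp in shLuc replicate 2 and 872 bp in shLuc replicate 3 (mean 945.0 ± 63.5 bp, SD, n = 3 libraries). These peaks sat almost evenly about the start: in shGFP 556 bases lay before the gene, 169 in exons and 262 in introns. The interval common to all 3 peaks was 872 bp, 88.3% of their joint extent. In shLuc replicate 1 the nearest listed peak was 13158 bp away, at the start of Nelfb, a subunit of the negative elongation factor, and that Nelfb peak was listed in all 4 libraries. The sequence below lies inside the peak of all 3 libraries, at chr2:25224703-25224952 on the minus strand, and its capitals mark 5 CCAAT boxes and a GC box.
Tubb4b: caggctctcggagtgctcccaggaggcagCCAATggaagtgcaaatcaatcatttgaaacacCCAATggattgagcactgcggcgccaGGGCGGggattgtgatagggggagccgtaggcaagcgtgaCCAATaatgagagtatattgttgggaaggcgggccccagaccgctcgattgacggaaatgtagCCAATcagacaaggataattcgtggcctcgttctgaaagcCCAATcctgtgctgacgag
The CCAAT boxes began 221, 188, 122, 59 and 19 bases before the start, all on the strand of the gene. CCAAT stood on either strand in 37.4% of 32851 RefSeq promoter windows and in 6 of the 9 members that have one. With 53.7% GC the Tubb4b window fell just under the limit for the CpG-rich class, while its CpG ratio was 0.77.

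Tuba1a (ENSMUSG00000072235.6, chr15:98949837-98953703, minus strand) was the member with a promoter peak in the most libraries, though the width and ends of that peak varied more than for Actb and Tubb4b. Its widths were 944 bp in shGFP and 681, 753 and 646 bp in shLuc replicates 1, 2 and 3 (mean 756.0 ± 133.0 bp, SD, n = 4 libraries). The peak covered the GENCODE start in 3 libraries and ended 36 bp inside the gene in shLuc replicate 1. The RefSeq start, 202 bp from the GENCODE start, lay inside the peak in all 4 libraries. In all 4 it lay mostly over exon 1 and the first intron, with 288 to 603 bases in introns and 217 to 253 in exons. The 4 peaks shared 505 bp, 52.5% of their joint extent of 961 bp, because the end inside the gene moved by 315 bp and the other by 141 bp. Gm49450, annotated as a protein-coding gene that runs from Tuba1a through Tuba1b, starts 152 bp inside Tuba1a, so this peak lies at the start of both. The intron part of the shared interval, chr15:98953163-98953450 on the minus strand, is shown because it lay in a peak of all 4 lists and outside any exon. It was read from the GRCm38 genome, holds 288 bases with 62.5% GC and 21 CpG pairs, and has no capitals because none of the 5 searched motifs was found in it.
Tuba1a intron: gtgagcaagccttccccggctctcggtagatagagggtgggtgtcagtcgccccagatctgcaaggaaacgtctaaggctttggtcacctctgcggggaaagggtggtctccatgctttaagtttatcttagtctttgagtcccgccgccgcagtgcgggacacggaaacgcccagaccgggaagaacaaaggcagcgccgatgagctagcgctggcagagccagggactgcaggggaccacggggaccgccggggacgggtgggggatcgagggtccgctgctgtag

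Tuba1a and Tuba1b lie side by side on the same strand, with starts 19138 bp apart and 15271 bp between them. The neuron-enriched gene of the pair had a promoter peak in 4 lists and the widely used one in 2. A peak overlapped the GENCODE start base in 3 and 1. These peaks also lay near starts of Gm49450 at Tuba1a and of Gm41396 at Tuba1b. The Tuba1a window had 59.0% GC with a CpG ratio of 0.62 and that of Tuba1b 72.7% with 0.99, so both were CpG-rich.

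Tubb3, the neuronal β-tubulin gene (ENSMUSG00000062380.4, chr8:123411424-123422015, plus strand), had a promoter peak in 1 library. It measured 595 bp in shLuc replicate 2 and covered the start, with 86 bases before the gene, 239 in exons and 270 in introns. The nearest peaks in shGFP and shLuc replicates 1 and 3 were 4373, 11008 and 31320 bp from a start. That of shGFP lay 56 bp from the start of Mc1r, the melanocortin receptor gene, and that of replicate 1 lay 602 bp from the start of Def8. Its window was CpG-rich, with 67.3% GC and a ratio of 0.77.

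The muscle actins had neither promoter peaks nor, for the most part, peaks nearby. Acta1 (ENSMUSG00000031972.5, chr8:123891769-123894751, minus strand) had 1 peak within 20 kb, 670 bp wide and 9503 bp from the start, in shGFP, and in the shLuc libraries the nearest was 30128, 30050 and 30039 bp away. Actc1 (ENSMUSG00000068614.7, chr2:114047282-114053548, minus strand) also had 1, in shGFP, 655 bp wide and 3644 bp upstream, 879 bp from the antisense gene C130080G10Rik, while the shLuc distances were 38870, 38810 and 121532 bp. Acta2 (ENSMUSG00000035783.9, chr19:34241090-34255590, minus strand) had none within 20 kb in any library, and its nearest peaks were 34551, 271491, 34749 and 61482 bp away. No list thus held a promoter peak for these genes, and the shGFP peaks near Acta1 and Actc1 had no counterpart within 20 kb in a shLuc library. Their windows had 54.7% to 62.7% GC but CpG ratios of only 0.26 to 0.43, beside a median of 0.38 for all promoter windows. Acta1 (0.43) was above that median, and Acta2 (0.27) and Actc1 (0.26) were below it. All 3 fell in the CpG-poor class, in which 43.0% of 8957 protein-coding genes had a promoter peak in at least 1 library.

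The Acta1 and Actc1 upstream sequences are shown because they carry the CArG box known from muscle actin promoters while no peak was listed there. They cover chr8:123894776-123895025 and chr2:114052888-114053125, both on the minus strand and from RefSeq (GRCm38.p6). The Actc1 stretch lies inside the annotated gene, downstream of its first GENCODE start and upstream of its later one. Capitals mark the CArG box in both, the TATA box (TATAAA), GC boxes and CAGCTG (an E-box of muscle regulators) in Acta1, and an inverted CCAAT box in Actc1.
Acta1: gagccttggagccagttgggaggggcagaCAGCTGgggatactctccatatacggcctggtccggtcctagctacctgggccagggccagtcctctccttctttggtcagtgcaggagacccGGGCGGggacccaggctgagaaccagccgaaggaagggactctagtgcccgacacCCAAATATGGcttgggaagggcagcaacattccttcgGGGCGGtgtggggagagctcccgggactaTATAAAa
Actc1: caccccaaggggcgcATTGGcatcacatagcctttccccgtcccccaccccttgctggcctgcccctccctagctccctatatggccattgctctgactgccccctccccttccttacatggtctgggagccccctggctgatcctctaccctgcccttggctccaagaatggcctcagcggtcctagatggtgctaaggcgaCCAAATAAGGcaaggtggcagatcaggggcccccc
The CArG box began 73 bases before the RefSeq start in Acta1 and 47 bases before it in Actc1, and the Acta1 TATA box began 31 bases before the GENCODE start. On either strand, a CArG box stood in 1.63% of the 32851 promoter windows, TATAAA in 13.6%, GGGCGG in 35.7% and CAGCTG in 16.3%. The CArG boxes marked in these genes and in Actg1 all read CC, then only A and T, then GG. Near matches, such as ccctatatgg in Actc1, were not marked, so looser CArG boxes can be missed. Among the members searched, 3 of 9 had a CArG box (Actg1, Acta1 and Actc1). None of these had a promoter peak in any library, as was so for 35.3% of all protein-coding genes. The share among all genes with a CArG box is not given here. Actb, which had a promoter peak in 2 libraries, had no RefSeq window and was not searched, so these counts leave it out. A match describes the letters only, and the binding of a factor was not measured.

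**Figure D2:**
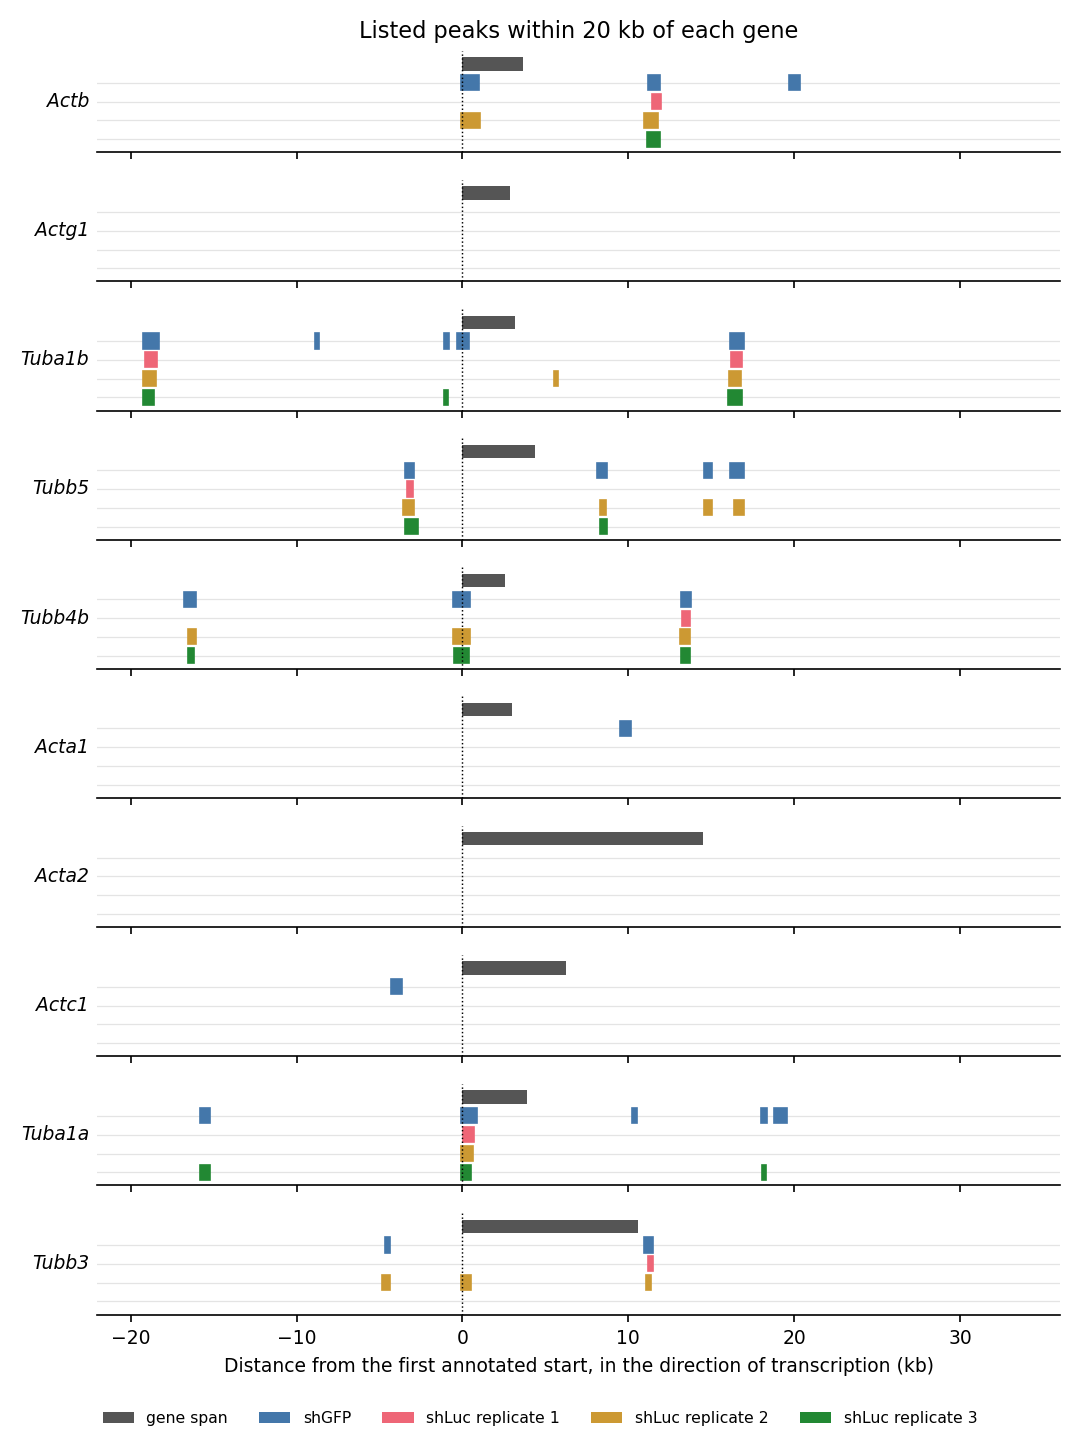
Listed peaks around each gene. The horizontal axis is the distance in kb from the first annotated start in the direction of transcription, the grey bar is the gene and each coloured row is a library. Peaks at the start or within 36 bp of it are present in 4 libraries for Tuba1a, 3 for Tubb4b and 2 for Actb, and several neighbouring peaks, such as that 13 kb from the Tubb4b start, run through all 4 rows.

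Around the members, most peaks that recurred in all 4 libraries lay at the starts of neighbours. Counted once for each member they lie near, the peaks formed 26 regions, of which 6 were present in all 4 libraries, 4 in 3, 7 in 2 and 9 in 1. At 4 of the 5 widely used members, the region found in all 4 libraries covered the start of another gene: Fbxl18 at Actb, Lmbr1l and Tuba1a at Tuba1b, Mdc1 at Tubb5 and Nelfb at Tubb4b. No peak lay inside a member's gene other than at a start. Over gene and flanks, 24 peaks were counted in shGFP, whereas shLuc replicates 1, 2 and 3 held 7, 16 and 12 (mean 11.7 ± 4.51, SD, n = 3). The shGFP count exceeded the shLuc mean by 12.3, more than the SD, and it came from the longest list. With all lists reduced to their 17860 widest peaks, the counts were 9 in shGFP and 6.67 ± 0.577 (SD, n = 3) in shLuc. That difference was smaller but still exceeded the SD. In both sets of counts, a peak near Tuba1a and Tuba1b entered under each gene. With each peak counted once, the full lists held 20 in shGFP and 6, 15 and 10 in shLuc replicates 1, 2 and 3. The reduced lists were not recounted in this way, so whether their difference would still exceed the SD is unknown.

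Summed over the 4 libraries, the widely used members ranged from 0 peaks (Actg1) to 13 (Tuba1b) and the restricted ones from 0 (Acta2) to 10 (Tuba1a), against a median of 7 for protein-coding genes. Of these peaks, 8 were counted under both Tuba1a and Tuba1b. Actb had 7, Tubb5 11, Tubb4b 10, Tubb3 6 and Acta1 and Actc1 1 each.

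**Figure D3:**
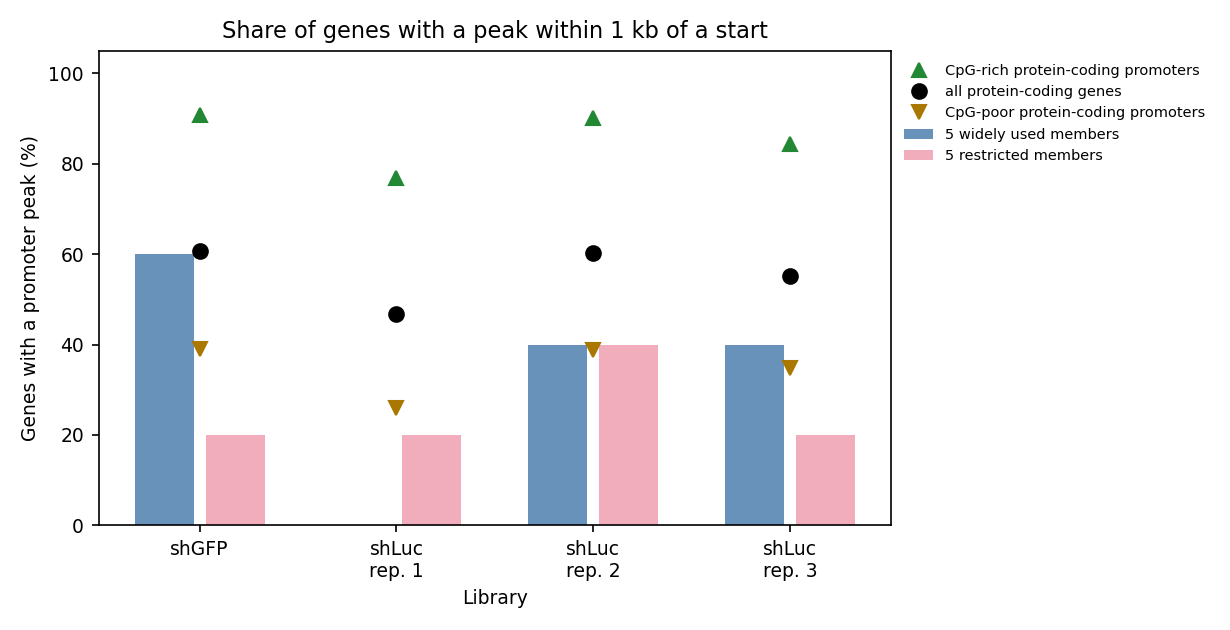
Share of genes with a peak within 1 kb of a start (vertical axis, percent) in each library. Bars give the 5 widely used and 5 restricted members, and markers give all, CpG-rich and CpG-poor protein-coding genes. Neither set of bars reaches the CpG-rich marker (76.8% to 90.8%) in any library.

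The promoter peaks that were listed had ordinary widths for promoters. The median promoter peak of protein-coding genes was 921 bp wide in shGFP and 683, 888 and 863 bp in shLuc replicates 1, 2 and 3. Actb and Tubb4b were above that median wherever they were listed, and below the upper quartile (1178 bp in shGFP, 1146 bp in shLuc replicate 2). Tuba1a was above the median in shGFP, at 681 against 683 bp in shLuc replicate 1, and below the median in the others, with 646 bp under the lower quartile of 650 bp in replicate 3. The Tuba1b peak over the start, 761 bp, was within the quartiles of shGFP, and its upstream peaks of 338 and 255 bp were below the lower quartile. Tubb3, at 595 bp, was under the lower quartile of 668 bp in its library. Widths were thus greater for Actb than for Tubb4b, and for Tubb4b than for Tuba1a, in shGFP and in shLuc replicate 2, the libraries in which all of them were listed.

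**Figure D4:**
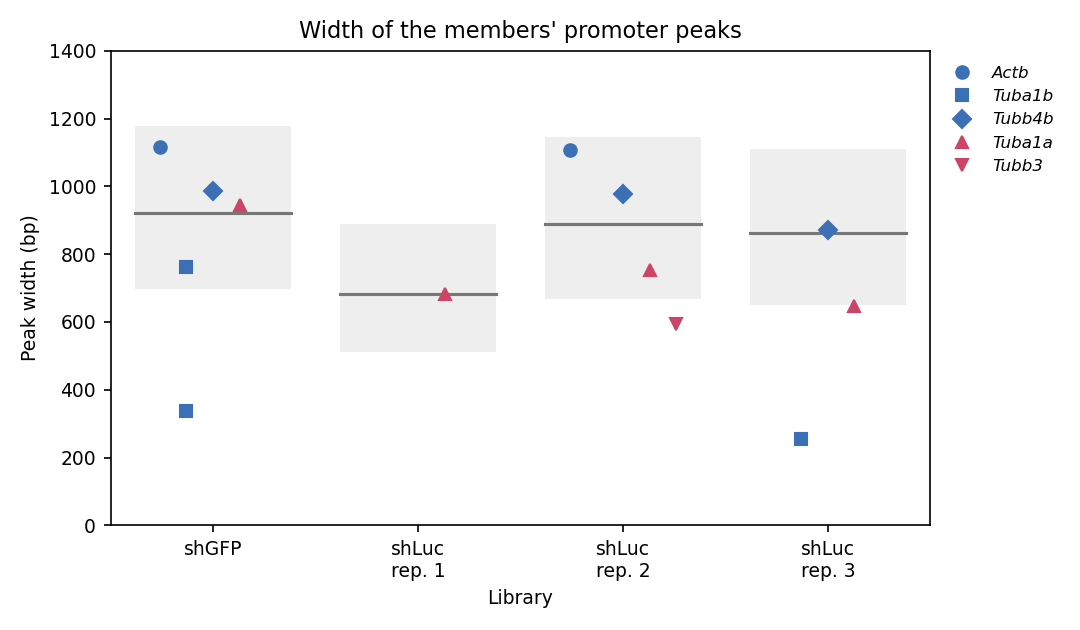
Width in bp of each listed promoter peak of the members, by library. Blue symbols are widely used and red symbols restricted members, the grey box spans the quartiles and the grey line is the median of the promoter peaks of protein-coding genes. Tuba1a runs from 944 bp in shGFP to 646 bp in shLuc replicate 3.

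Reads that fit more than one place in the genome were put at one of them at random, so repeated sequence could bear on these genes, which have close relatives and processed copies. Within 500 bp of the first start, no word of 50 bases occurred elsewhere in the genome for Actb, Tubb5, Acta1, Acta2 and Tuba1a. The share of repeated words there was 3.15% for Actg1, 5.99% for Tuba1b, 1.16% for Tubb4b, 2.21% for Actc1 and 3.89% for Tubb3, against a mean of 7.17% over protein-coding genes, of which 72.0% had no such word. The start regions were thus mostly unique. Over the whole gene the share was 57.3% for Actg1, 51.3% for Tuba1b, 33.4% for Tuba1a and 33.0% for Tubb4b, and the part of repeated sequence in which peaks were listed was not tested.

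The other genes of both families, taken from fixed lists, had promoter peaks in a larger share than the members in each library, a difference that was not tested. Of all protein-coding genes, 60.7% had one in shGFP and 46.8%, 60.3% and 55.1% in shLuc replicates 1, 2 and 3. In all 4 libraries 42.5% had one, and 35.3% had one in none. Of 16 other actins and actin-related genes, 11 had a promoter peak in shGFP and 10, 11 and 12 in shLuc, 10 in all 4 and 4 in none. By mean width among those in all 4 libraries, the widest were those of Actr2, a subunit of the Arp2/3 complex (1187, 749, 924 and 1139 bp in shGFP and shLuc replicates 1 to 3), Actl6a, a chromatin remodelling subunit, and Actr5. Of 15 other tubulins, 11 had one in shGFP and 8, 12 and 11 in shLuc, 7 in all 4 and 3 in none. The 7 of 15 in all 4 libraries were near the share of 42.5% for all protein-coding genes. Among these 7 tubulins, Tubb6 had the widest on average (1394, 1266, 1347 and 1407 bp), followed by Tubb2b, whose width moved from 543 to 2108 bp, and Tubd1.

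The members' patterns recurred unevenly in these families. Besides the 10 actin-related genes, the pattern of Tuba1a, a promoter peak in 4 of 4 libraries, was shared by Tuba1c, Tubal3, Tubb2b, Tubb6, Tubg1, Tubd1 and Tube1. That of Tubb4b, in all but shLuc replicate 1, was shared by Actr1a, Tuba4a, Tubb2a and Tubb4a. Actg2, Actl7a, Actbl2, Actrt2, Tuba3a, Tuba3b and Tubb1 had no promoter peak in any library, as for the 5 absent members. No gene of these families had the pattern of Actb, of Tuba1b or of Tubb3, which 2.59%, 0.743% and 1.69% of protein-coding genes had. This likeness is identical presence in 4 of 4 libraries and says nothing of function.

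Most genes whose products fold, nucleate, move along or regulate actin and tubulin had a promoter peak. Of 20 tubulin partners in wide use (chaperones, γ-tubulin ring and motor genes), 20 had a promoter peak in shGFP and 19, 20 and 17 in shLuc, with 17 in all 4. Kif5b, a kinesin, Tcp1, a subunit of the chaperonin that folds actin and tubulin, and Map4 had the widest on average among those 17. Of 20 actin partners, 15 had one in shGFP and 13, 18 and 18 in shLuc, 12 in all 4 and 1, the cofilin gene Cfl1, in none. Of the 12 in all 4 libraries, Capza1, a capping protein gene, had the widest on average (1609, 1355, 1586 and 1335 bp), followed by Wdr1 and Cap1. In each library the counts of both partner lists were above the share for all protein-coding genes and that of the 10 members was below it, and these differences were not tested.

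Markers of all 4 cell types examined included genes with and without promoter peaks. Of 10 ESC markers, 4 had a promoter peak in shGFP and 2, 4 and 4 in shLuc; Tfcp2l1 and Zfp42 had one in all 4 libraries, and 5 (Pou5f1, Nanog, Sox2, Dppa5a and Sall4) had none in any. Of 14 muscle markers, 7 had one in shGFP and 3, 8 and 4 in shLuc, with Actn2, Ckm and Myh11 in all 4 and 5 in none. Of 12 neuron markers, 11 had one in shGFP and 4, 11 and 10 in shLuc, with Nefh, Map2 and Mapt in all 4 and 1 (Dcx) in none. Of 8 fibroblast markers, 4 had one in shGFP and 3, 4 and 3 in shLuc, with Twist1, Thy1 and Col1a1 in all 4 and 4 in none. Of all protein-coding genes, 60.7%, 46.8%, 60.3% and 55.1% had one in the same lists. The ESC, muscle and fibroblast markers were each below that share in each library. Neuron markers were above it in all but shLuc replicate 1. These counts cover only peaks listed in the files analysed here, which may not be complete at single genes, and they do not settle the labelled cell type. A promoter peak shows open DNA, not a transcript.

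**Figure D5:**
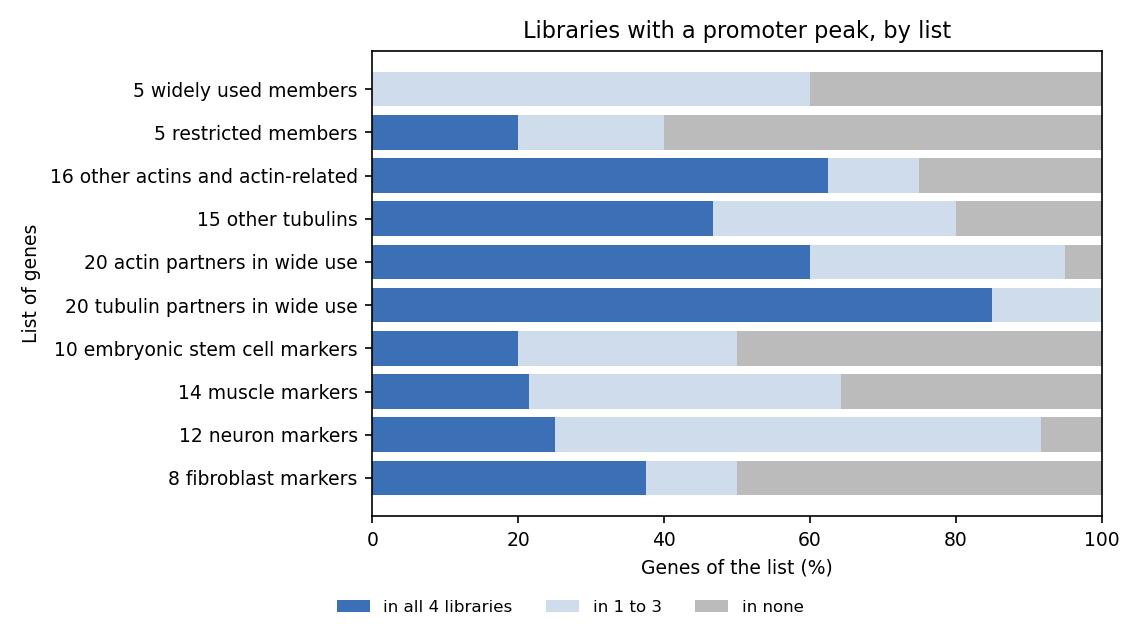
Share of each list's genes (horizontal axis, percent) with a promoter peak in all 4 libraries (dark), in 1 to 3 (pale) or in none (grey). The tubulin partners have the longest dark bar, with 17 of 20 genes, and the widely used members have no dark bar.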

How the data were processed

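ATAC-seq libraries of E14 cells, 1 shGFP and 3 shLuc, were analysed as grouped by the labels. The authors deposited 1 peak list per library with 3 columns, chromosome, start and end, without a score per peak, so replicates were not pooled. The submitters' processing notes name bcl2fastq, Bowtie2, MACS2 and the build mm10, and the role, thresholds and any transposase shift are not given in the sources used here. The study's methods describe bowtie2 alignment to mm10, random placement of reads with several equal best positions, removal of mitochondrial and unassigned reads and use of concordant pairs. A library with fewer reads lists fewer peaks, and the depth of each is unknown.

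Starts of 141730 GENCODE transcripts on 21 chromosomes were used, and a gene with a listed peak within 1 kb of any of them had a promoter peak. Distances are from the nearest edge of a peak to the nearest start, and coordinates are mm10, counted from 1. RefSeq promoter windows (250 bases before and 50 after the start) were matched by symbol for 9 of 10 members (all but Actb) and 16539 protein-coding genes. Motifs were the TATA box TATAAA, the CCAAT box, the GC box GGGCGG, the E-box CAGCTG and the CArG box, searched on both strands, with overlaps kept. Words of 50 bases were counted on both strands of the genome. Python 3.11.15, numpy 2.4.6, pysam 0.24.0, numba 0.67.0 and matplotlib 3.10.9 were used, and the functions were tested on simulated data. No test across samples was run, and p-values are absent for that reason. The labels do not say whether the shLuc libraries came from separate cultures, so an SD may be technical.

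The members, gene lists and alternatives were chosen with earlier results of these data known. Other genes were named by rule: those with a start within 1 kb of a member's promoter peak, the nearest start to a flank peak, the 3 widest in all 4 libraries of each list, and relatives with the same presence as a member. Cfl1, Dcx and the 5 ESC markers without a peak were named after their values were seen. Alternatives were a start window of 500 bp, 5 kb or direct overlap, starts of protein-coding transcripts only, the widest 50% of each list or its 17860 widest peaks, flanks of 10 and 50 kb, Tuba1a or Tubb4b in the other class, and leaving out each shLuc library.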

Additional observations from a re-analysis of the deposited data

How the results depend on the processing

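No paired analysis was possible because shGFP has 1 library and shares only 1 replicate number with shLuc. Over 13 alternatives and 7 summary values, 39 of 55 recomputed values stayed within the SD or 1.5 times, 6 were higher and 10 lower.

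The class difference depended on the classification. With Tuba1a among the widely used members it was 2.50, and with Tubb4b among the restricted members it turned to -1. With starts within 5 kb, 7 members had a promoter peak in shGFP, 2 in all libraries (Tubb5, through the Mdc1 peak, joined Tuba1a) and 3 in none. The count in all 4 libraries fell to 0 when a peak had to overlap the start base and with the widest 50% of each list. Without a shLuc library it ranged from 1.00 to 2.00, with 2 (Tuba1a and Tubb4b) without shLuc replicate 1. The class difference ranged from 0.333 without replicate 3 to 1.00 without replicate 1, and the other summaries moved by less than the SD or 1.5 times.

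Peaks over genes and flanks were 13 in shGFP and 4.67 in shLuc with the widest 50% of each list, 9 and 6.67 with lists of equal length, 14 and 6.67 with flanks of 10 kb, and 54 and 33.7 with 50 kb. These settings keep fewer or more peaks by construction. Tuba1b had 1 library with a promoter peak instead of 2 within 500 bp, by direct overlap and among the widest peaks, and Tubb3 had none among the widest. The unknown depth limits each absence.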
